A study of Rattus rattus with 23 samples.

Results

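The genes of intraflagellar transport and of the ciliary base were followed across 6 groups of rats. They were chosen by name: every probe set with 1 gene symbol that starts with Ift or Bbs and a digit, or with Dync2, Tctn, B9d or Nphp, and those of the further named genes Kif3a, Kif3b, Kifap3, Traf3ip1, Cluap1, Ttc8, Arl3, Arl6, Mks1 and Cep290. This gave 43 genes with 60 probe sets, out of 14217 named genes and 31099 probe sets on the array. They comprise 16 genes of the IFT-B complex, 3 of the IFT-A complex, 7 motor subunits, 7 BBSome subunits, 1 BBSome chaperonin (Bbs12), 2 small GTPases, 6 genes of the MKS module of the transition zone and Nphp4 of the NPHP module. One probe set stood for each gene, the one with the highest mean signal. B9d2, a transition zone gene, did not pass the filter on low signals and ranged from 4.19 to 8.41 on the log2 scale over the 23 arrays, so 42 genes were tested. Kif17 and Arl13b, which the rule also names, were matched by no probe set and were not analysed here.

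Male Sprague-Dawley rats breathed 200 ppm hydrogen sulfide (H2S), a gas that injures the nasal lining, or air through the nose for 3 h a day. Respiratory epithelium of the nose was then taken by laser capture, and its RNA was amplified and measured on 1 Affymetrix Rat230_2 array per animal. The exposed groups were H2S 3 h (animals 3 to 6), H2S 6 h (animals 8 to 10), H2S 24 h (animals 11 to 14) and H2S 144 h (animals 23 to 26), with times counted from the start of the first exposure. The reference groups were air 24 h (animals 15 to 18) and air 144 h (animals 19 to 22). By the design text, exposure lasted 1 or 5 consecutive days. The treatment labels give 5 days to the 144 h groups, and also to animals 6, 14 and 18, which their titles place at 3 h or 24 h. The animals were 60 days old by their labels and 10 weeks old by the design text. The 3 h, 6 h and 24 h comparisons all use the same 4 air animals, and no air animals of 3 h or 6 h were analysed here.

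A cilium is built and maintained by intraflagellar transport, in which trains of IFT-B and IFT-A particles carry cargo along the microtubules of the axoneme. Kinesin-II drives the trains toward the tip and dynein-2 brings them back, the BBSome rides on them as an adaptor for membrane proteins, and the transition zone at the ciliary base controls what enters. Most mammalian cells can use this machinery for a single primary cilium, while multiciliated cells of the nasal lining use it for the many motile cilia that move mucus. In the mouse, Foxj1 is a transcription factor that motile cilia require.

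Values are log2(signal + 16), a scale that understates the change of dim genes, and a level of 1 gene was never set against that of another. Two-sided tests were made with limma over all 23 arrays, and a gene was called where its p, adjusted by Benjamini-Hochberg over 19822 probe sets, was under 0.05. Across all probe sets, animal 18 (air 24 h) correlated with the remaining animals at a median of 0.431 and animal 22 (air 144 h) at 0.742, against 0.858 to 0.917 for the others. These 2 arrays also had the highest medians, 8.41 and 8.05 on the log2 scale, so changes between groups are also given without both where that moved them by over 1.5 times or turned their direction. The multiciliated cell marker Foxj1 had a signal of 278.5 to 2512 on the 23 arrays, with a median of 732. Omp, a marker of mature olfactory neurons, had a signal of 10.75 to 528.6, with a median of 49.5. Nothing beyond separate animals defines the replicates, and p-values set a change or slope against the spread between these animals within groups.

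At 144 h, after repeated exposure, 39 of the 42 genes had a higher mean in H2S animals than in air animals, but limma called 0 of them. The median change was 0.78 log2 units, beside 0.01 over all 11237 genes. No probe set on the array was called in this comparison (0% of 19822), and the smallest adjusted p among the members was 0.580. At an unadjusted p under 0.05, 16 members (38.1%) were higher and 0 were lower, against 8.37% of all genes in either direction. In tissue samples such as these, more ciliated cells and more RNA per ciliated cell cannot be told apart.

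The mean level of the 42 genes, relative to the mean of all genes on the same array, was 1.31, 1.51, 0.47 and 1.66 in the H2S 144 h animals (23 to 26). It was -0.15, 0.60, 0.42 and 0.83 in the air 144 h animals (19 to 22). The groups overlapped through animal 25, which lay below air animals 20 and 22. The group means were 1.24 ± 0.53 in H2S 144 h and 0.43 ± 0.42 in air 144 h (SD, n = 4 each).

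**Figure D1:**
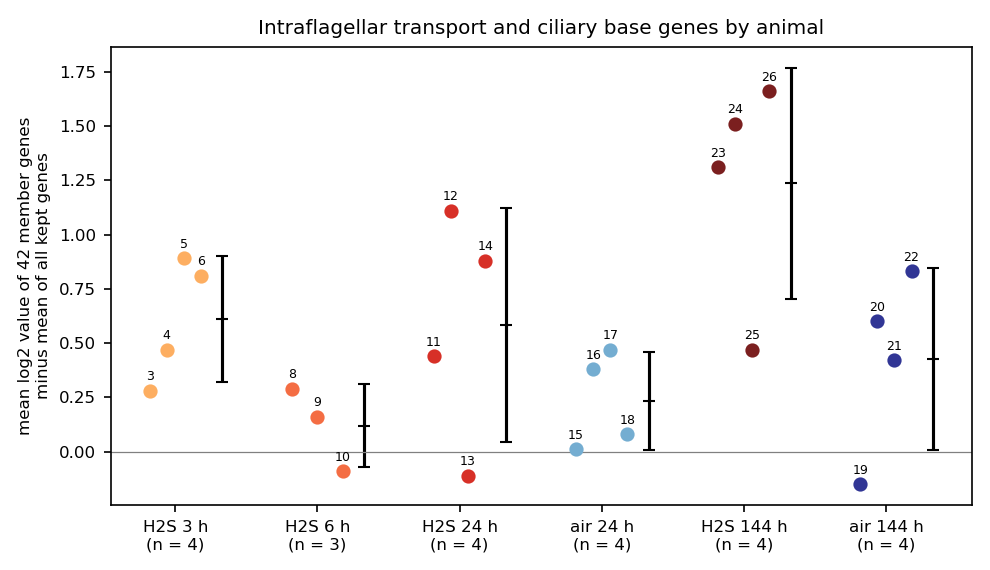
Mean log2 value of the 42 member genes minus the mean of all kept genes on the same array, with 1 numbered point per animal and the mean ± SD beside each group. H2S 144 h animals 23, 24 and 26 lie between 1.31 and 1.66, above all other animals, while animal 25 of that group lies at 0.47.

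Of the IFT-B genes, all 16 had a higher mean at 144 h, with a median change of 0.95 and 8 at an unadjusted p under 0.05, and 0 were called by limma. IFT-B holds the core and peripheral subunits of the train that moves toward the ciliary tip. Ift81, which with Ift74 binds tubulin cargo, had 12.05, 12.52, 11.22 and 12.61 in H2S animals, against 10.24, 11.44, 10.74 and 10.01 in air animals. Its change was 1.49 ± 0.45 (SE; limma, adjusted p = 0.580), about 2.82-fold, and only animal 25 lay below the highest air animal. Its partner Ift74 differed by 1.26 (unadjusted p = 0.00994).

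Ift88, a core subunit whose loss leaves mouse cells without cilia, had 10.48, 10.75, 9.98 and 10.93 in H2S 144 h, against 9.29, 9.88, 9.50 and 9.72 in air 144 h. All 4 H2S animals lay above all 4 air animals, with a change of 0.93 ± 0.37 (SE). Members whose 4 exposed animals all lay above the 4 air animals numbered 3 (Kif3a, Bbs7 and Ift88), against 3.13% of all genes. Ift70b and Ift70a1, related tetratricopeptide-repeat subunits, differed by 1.48 and 1.23, Ift57 by 1.21, and the partners Ift25 and Ift27 by 1.34 and 0.96. The smallest IFT-B changes were those of Cluap1 (0.30), Ift20 (0.34) and Ift22 (0.39). All 3 moved without animals 18 and 22: Ift20 was then at -0.10, Cluap1 at 0.55 and Ift22 at 0.84, so that 15 of 16 IFT-B genes were higher, 12 of them at an unadjusted p under 0.05.

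The 3 IFT-A genes, subunits of the complex that serves the return journey and the entry of membrane proteins, all had higher means in H2S 144 h. Ift140 had 11.21, 11.35, 10.33 and 11.37 in H2S animals, against 9.06, 10.02, 10.12 and 10.95 in air animals. Exposed animals 23, 24 and 26 stood above all air animals, and animal 25 stood between air animals 21 and 22. The change of Ift140 was 1.03 ± 0.40 (SE; unadjusted p = 0.0174), beside 0.87 for Ift43 and 0.70 for Ift122.

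Among the motor genes, the largest 144 h change of any member was that of Kif3a, a motor subunit of kinesin-II. It had 9.91, 10.58, 8.99 and 10.67 in H2S 144 h animals, against 7.25, 8.66, 8.19 and 8.45 in air 144 h animals. The groups did not overlap, although animal 25 (8.99) was close to air animal 20 (8.66). The change was 1.90 ± 0.46 (SE), about 3.74-fold (limma, unadjusted p = 0.000456, adjusted p = 0.580). The other kinesin-II genes differed less in size: Kif3b, its motor partner, by 0.47 ± 0.28 and Kifap3, the subunit that links the motor to cargo, by 0.60 ± 0.38 (SE). Whether these changes differ from one another was not tested.

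Dync2h1, the heavy chain of dynein-2, differed by 1.52 (unadjusted p = 0.00519), about 2.87-fold. Dync2li1, its light intermediate chain, had 12.61, 12.46, 11.47 and 13.05 in H2S 144 h, against 9.98, 11.05, 11.51 and 11.94 in air 144 h. Again 3 exposed animals lay above every air animal and animal 25 did not, and the change was 1.28 (unadjusted p = 0.0116). The intermediate chains Dync2i1 and Dync2i2 differed by 0.66 and 0.46, and Dync2i2 by 0.83 without animals 18 and 22.

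Of the 7 BBSome subunits, 5 had higher means at 144 h and 2 lower, with a median of 0.79 and 3 at an unadjusted p under 0.05. Bbs7 had 11.13, 11.03, 10.36 and 11.38 in H2S animals, against 8.94, 10.12, 9.56 and 10.15 in air animals. Every H2S animal was above every air animal, and the change was 1.28 ± 0.36 (SE; unadjusted p = 0.00165, adjusted p = 0.580), about 2.42-fold. Bbs5, a subunit that binds membrane lipids, differed by 1.55 and Bbs2 by 0.94. The 2 with lower means were Bbs9 (-0.39 ± 0.43) and Bbs4 (-0.09 ± 0.30), and the chaperonin-like Bbs12, which helps assemble the BBSome, was at -0.16 ± 0.38 (SE). Bbs9 had its highest value of all 23 arrays in animal 22, at 10.93, and without animals 18 and 22 its change was -0.06 and that of Bbs4 -0.04.

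Arl6, the small GTPase that recruits the BBSome to membranes, differed by 1.45 at 144 h (unadjusted p = 0.0124), and Arl3, which releases lipid-modified proteins inside the cilium, by 0.51. The 5 tested transition zone genes of the MKS module had changes of 0.43 to 0.83, all positive, with 0 at an unadjusted p under 0.05. These ran, without animals 18 and 22, from 0.36 to 1.10, and 3 of the 5 had an unadjusted p under 0.05 (Cep290, B9d1 and Mks1). Cep290, which links the ciliary membrane to the microtubules, had the largest of these changes in the full data, 0.83 ± 0.62 (SE). Nphp4, a dim gene of the NPHP module, differed by 0.76 ± 0.78 (SE), and by 1.58 ± 0.70 without animals 18 and 22.

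**Figure D2:**
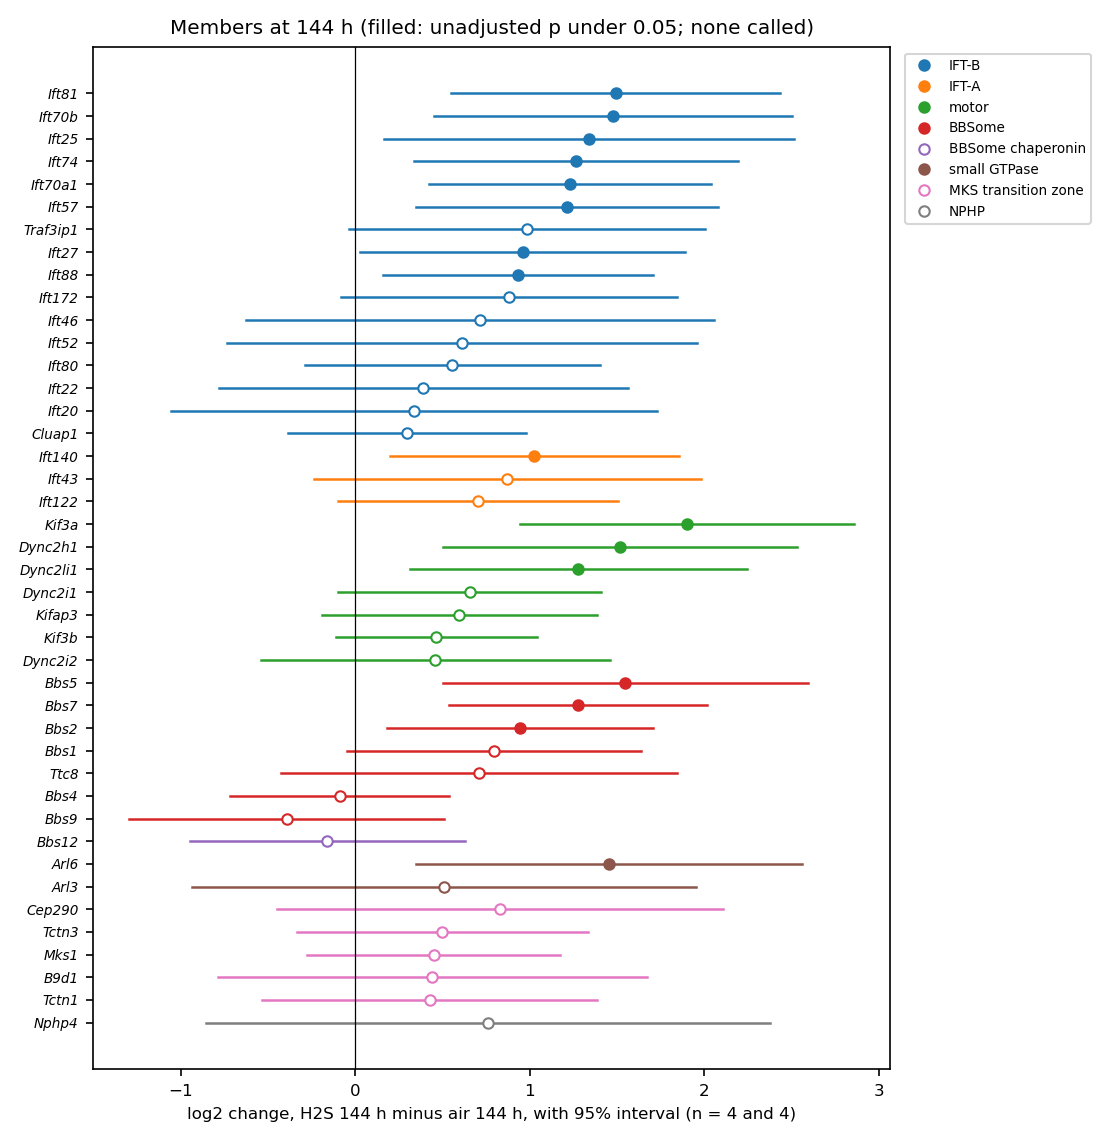
Log2 change of each of the 42 members, H2S 144 h minus air 144 h (n = 4 and 4), with limma's 95% interval, coloured by role and sorted within it. Filled points have an unadjusted p under 0.05 (16 members), none was called, and only Bbs9, Bbs12 and Bbs4 lie below 0.

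Single animals moved many members together. Animal 25 was the lowest of the H2S 144 h group for 38 of the 42 genes, and animal 19 the lowest of the air 144 h group for 29. Animal 26 was the highest of its group for 29 genes and the highest of all 23 animals for 24. Animal 13 was the lowest of the H2S 24 h group for 34 genes, and animal 10 the lowest of the H2S 6 h group for 27. The RNA integrity number was 1.7 in animal 26, the lowest recorded, and 2.6 in animals 13 and 18. It was 4.5 in animal 25, 5.6 in animal 19 and 6.4 in animal 10.

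Leaving out animal 19 gave a 144 h median of 0.55 with 9 members at an unadjusted p under 0.05. Leaving out animal 25 gave 1.04 with 22 such members. Without animals 18 and 22, the median was 0.95, 38 of 42 members were higher and 27 had an unadjusted p under 0.05, against 13.87% of all genes then tested. Kif3a then differed by 2.00 (adjusted p = 0.189) and Bbs7 by 1.43 (adjusted p = 0.240), and the count of members called by limma was again 0.

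**Figure D3:**
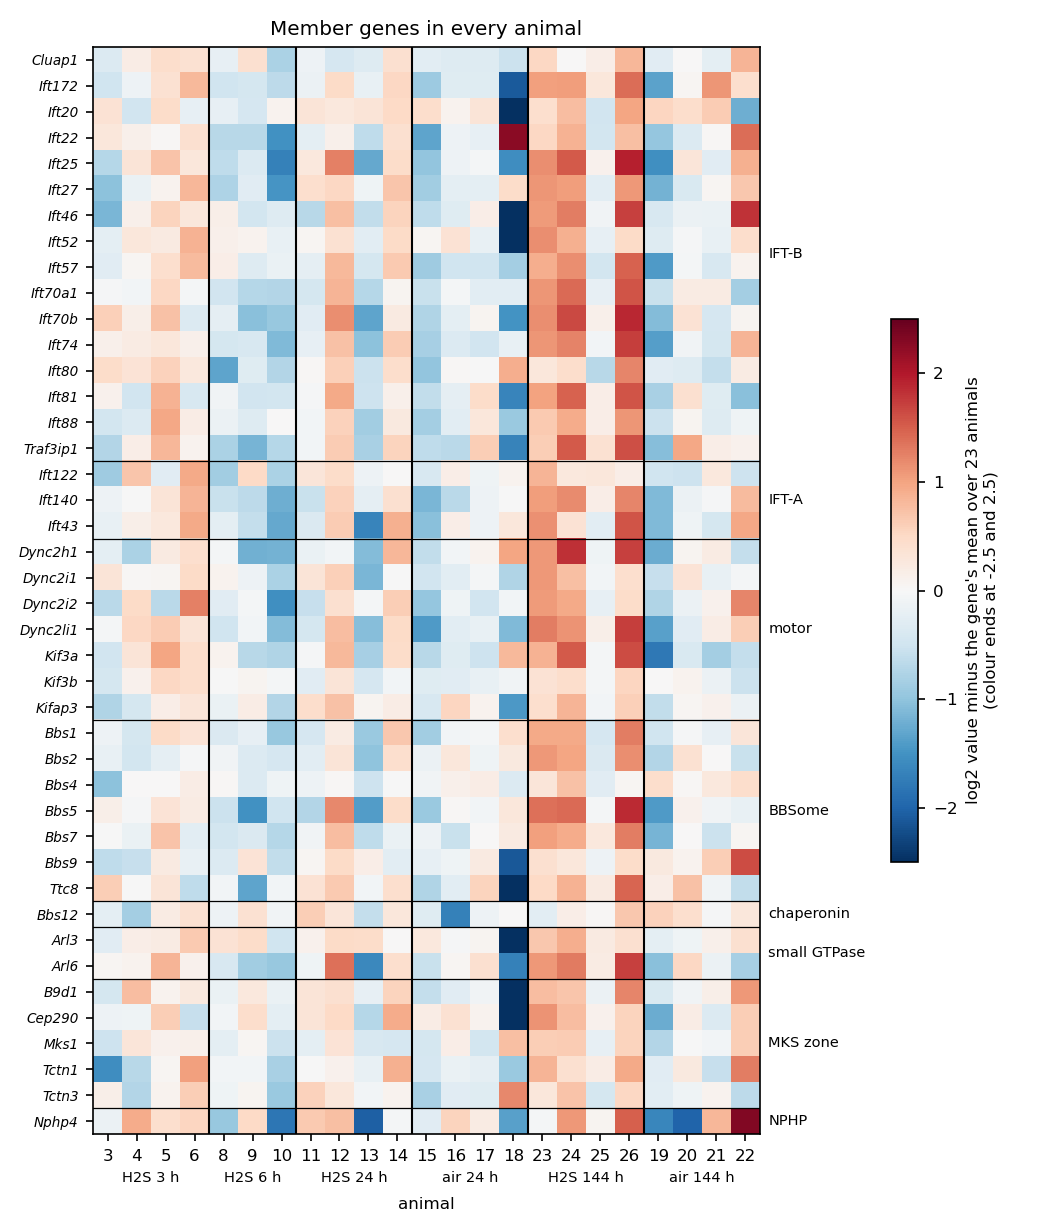
Log2 value of each member gene (rows, grouped by role) in each animal (columns, grouped by exposure and time), minus that gene's mean over 23 animals. Red columns mark H2S 144 h animals 23, 24 and 26, and many of the darkest blue cells fall in animal 18.

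Other cell markers were read beside these values. Cartilage and bone genes, which mark tissue beneath the epithelium, were lower in H2S 144 h for 7 of 8 measured genes, with a median of -1.97 and 0 called by limma (5 at an unadjusted p under 0.05). Their level relative to all genes ranged from -1.22 to -0.54 in H2S 144 h and from -0.92 to 2.65 in air 144 h, with the highest values in animals 19 (2.65) and 22 (1.48). The cartilage collagen gene Col2a1 had a signal of 5.02 to 11130 over the arrays. Stroma and vessel genes had a median of -0.61 (4 of 15 higher), olfactory genes -0.24 (4 of 11), leukocyte genes 0.02 (10 of 20), blood genes 0.11 (2 of 3), basal cell genes 0.16 (8 of 12), secretory genes 0.22 (10 of 17) and cell cycle genes 0.24 (15 of 21). Limma called 0 genes of these lists. With animals 18 and 22 left out, the basal cell median was 0.66, the cell cycle median 0.46, the leukocyte median 0.21, the olfactory median -0.08 and the blood median -0.28. The 6 cartilage and bone genes then tested had a median of -1.69, with 3 at an unadjusted p under 0.05. The basal cell level was 1.96 in animal 25, against 0.36 to 0.57 in the other 3 H2S 144 h animals. The part of these cells in the members' values was not tested.

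Genes of the motile axoneme, such as dynein arm and radial spoke genes, were set beside the members as another ciliary list. At 144 h, 39 of 40 had a higher mean in H2S animals, with a median of 1.15 and 17 at an unadjusted p under 0.05, and limma called 0. These numbers rested on single animals: the median was 1.56 with 28 such genes without animal 22, 0.67 with 3 without animal 19, and 1.57 with 26 without animal 25. Their level was 1.97, 2.00, 0.53 and 2.12 in the H2S 144 h animals, against -0.90, 0.80, 0.66 and 1.74 in the air 144 h animals. Animals 25 and 19 were again the lowest of their groups, in the same order as for the members. Cfap69, a central-apparatus protein gene, differed by 1.57 and Cfap300 by 1.37.

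**Figure D4:**
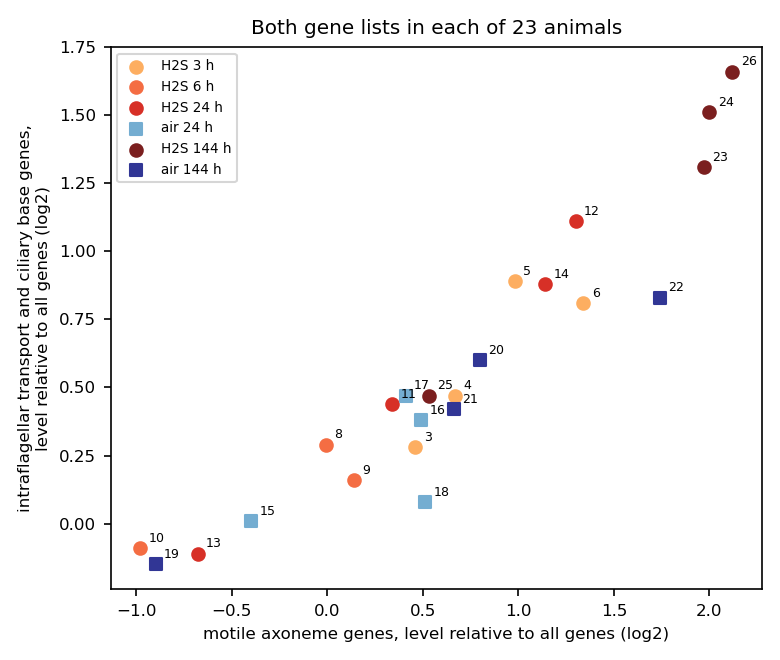
Level of the 42 member genes (vertical) against that of the 40 motile axoneme genes (horizontal) in each animal, both as mean log2 value minus the mean of all genes on the array. H2S 144 h animals 23, 24 and 26 lie at the upper right, and animals 10, 13 and 19 at the lower left, where both lists are low. Both levels come from the same arrays.

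Another 35 genes of intraflagellar transport and the ciliary base whose symbols fall outside the naming rule had a median 144 h change of 0.59, with 28 higher, 9 at an unadjusted p under 0.05 and 0 called by limma. The 9 became 5 without animal 19, 14 without animal 25 and 15 without animals 18 and 22. Ttbk2, a kinase that starts ciliary assembly at the mother centriole, differed by 1.25, and Cc2d2a, a transition zone gene, by 1.19. Genes of multiciliated cell fate and basal bodies had a median of 0.50 (23 of 25 higher, 6 at an unadjusted p under 0.05, 0 called), among them Cetn2, a centriole gene, at 1.24 and Rfx3, a ciliary transcription factor gene, at 1.39. That median was 0.87 without animal 22, 0.82 without animal 25 and 0.38 without animal 19. Hedgehog pathway genes, whose signals pass through primary cilia, had a median of -0.40, with 2 of 7 higher, 0 at an unadjusted p under 0.05 and 0 called.

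Foxj1 itself had nearly equal means at 144 h, with a change of 0.05 ± 0.49 (SE; limma, adjusted p = 0.991). Its log2 values were 10.06, 10.13, 9.21 and 10.78 in H2S 144 h animals, against 9.25, 9.26, 10.19 and 11.30 in air 144 h animals. The highest of all was in animal 22, and without that animal the change was 0.48 ± 0.48 (SE, adjusted p = 0.903).

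At 3 h, 39 of 42 members had a higher mean in H2S animals than in air 24 h animals, with a median of 0.52 beside 0.14 over all genes. Limma called 0 members (0.0807% of probe sets were called), and the smallest adjusted p among them was 0.472. At an unadjusted p under 0.05 there were 4 members, against 9.72% of all genes, and 4 members (Dync2i1, Dync2li1, Ift57 and Ift74) lay above all air animals, against 3.52% of genes. Other lists were as high at 3 h: motile axoneme genes had a median of 0.73 (36 of 40 higher), leukocyte genes 0.70 (17 of 20), basal cell genes 0.63 (9 of 12) and secretory genes 0.49 (11 of 17), with 0 called by limma. These medians without animals 18 and 22 were 0.71, 0.48, 0.86 and 0.62. The part of other cells in the 3 h values was not tested.

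Dync2li1 had 11.28, 11.84, 11.97 and 11.65 at H2S 3 h, against 9.91, 11.06, 11.15 and 10.23 in air 24 h. The groups did not overlap, and the change was 1.10 ± 0.46 (SE; adjusted p = 0.472). Ift57 had 11.61, 11.94, 12.30 and 12.68 at 3 h, against 10.99, 11.38, 11.38 and 11.04 in air, with a change of 0.94 ± 0.42 (SE; adjusted p = 0.488).

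At 24 h, 37 of 42 members were higher in H2S animals, with a median of 0.50 beside 0.14 over all genes. Limma again called 0 members (0.0101% of probe sets), and 4 had an unadjusted p under 0.05, against 8.41% of genes. Members with all H2S animals above all air animals were Ift57 and Ift172, 2 of 42, against 2.76% of genes. Ift172, the largest IFT-B subunit, had 9.86, 10.50, 9.82 and 10.54 in H2S 24 h, against 9.11, 9.71, 9.72 and 7.92 in air 24 h, and differed by 1.07 ± 0.46 (SE; adjusted p = 0.612). Animal 18 (7.92) was the lowest, and without animals 18 and 22 the change was 0.67 ± 0.44 (SE). At 24 h all 21 cell cycle genes also had higher means in H2S animals, with a median of 1.70 and 14 at an unadjusted p under 0.05, and limma called 0. Basal cell genes had a median of 0.60 (9 of 12 higher), secretory genes 0.40 (13 of 17), motile axoneme genes 0.40 (33 of 40), leukocyte genes -0.39 (5 of 20), stroma and vessel genes -0.38 (4 of 15) and cartilage and bone genes -0.59 (1 of 8). The cell cycle median without animals 18 and 22 was 1.47 (20 of 21 higher, 17 at an unadjusted p under 0.05), the secretory median 0.84, the leukocyte median -0.59 and the cartilage and bone median -0.16. The part of other cells in the 24 h values was not tested.

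Several of the larger changes against air 24 h rested on animal 18. In 7 members (Arl3, B9d1, Cep290, Ift20, Ift46, Ift52 and Ttc8) this animal lay over 2 log2 units below every other air 24 h animal. B9d1, a transition zone gene, had 9.81, 9.89, 9.29 and 10.05 in H2S 24 h, against 8.89, 9.21, 9.41 and 5.52 in air 24 h, and 9.05, 10.26, 9.58 and 9.73 at H2S 3 h. Its changes of 1.50 at 24 h and 1.40 at 3 h became 0.59 and 0.48 without animals 18 and 22.

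Ttc8, a BBSome subunit, had 8.44, 8.73, 8.01 and 8.49 in H2S 24 h, against 7.33, 7.82, 8.64 and 5.03 in air 24 h. The groups overlapped through animal 17, and the change of 1.21 became 0.48 without animals 18 and 22. For Ift20, the subunit that also sits at the Golgi, the 3 h change of 0.80 became -0.26. Without these animals, the median over the members was 0.38 at 3 h (35 higher) and 0.26 at 24 h (39 higher), each with 1 member at an unadjusted p under 0.05. In animal 18 the array itself stood apart for all genes. Its RNA integrity number was 2.6. Relative to all genes, its olfactory level was 0.79, against -0.26 or lower in every other animal. Its cartilage and bone level was 1.58, where only animal 19 was higher (2.65). These values do not separate its tissue from its hybridization, and the part of each was not tested.

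At 6 h the members lay on both sides of air 24 h: 19 were higher and 23 lower, with a median of -0.16 beside 0.10 over all genes. Limma called 0 members (0.00504% of probe sets were called), 0 had an unadjusted p under 0.05 (5.56% of genes), and the smallest adjusted p was 0.781. Only Kif3b and Ift57 had all H2S animals above all air animals, 2 of 42, against 2.51% of genes. The sign of this median depended on the scaling of the arrays: it was 0.04 after quantile normalization and 0.10 after centring each array on its median, where the median over all genes moved to 0.17 and 0.36. In each of these settings it lay below the median of all genes. With animals 18 and 22 left out, 11 of 42 members were higher, with a median of -0.17 beside -0.02 over all genes. Without animal 10 the median was 0.10, and without animal 17 it was 0.05. Motile axoneme genes had a median of -0.51 at 6 h (6 of 40 higher), basal cell genes 0.39 (7 of 12), leukocyte genes 0.09 (11 of 20) and stroma and vessel genes 0.30 (10 of 15), with 0 called by limma. The leukocyte median was -0.41 (6 of 20 higher) with animals 18 and 22 left out.

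Ift80, an IFT-B subunit, had 7.22, 8.24 and 7.81 at H2S 6 h, against 7.55, 8.56, 8.53 and 9.44 in air 24 h. The groups overlapped, with animal 18 the highest, and the change was -0.76 ± 0.44 (SE; adjusted p = 0.781), or -0.46 ± 0.41 without animals 18 and 22. Ift22, a small GTPase-like IFT-B subunit, had 7.76, 7.75 and 6.93 at 6 h, against 7.13, 8.31, 8.24 and 10.71 in air, where animal 18 was again the highest, a change of -1.12 that was -0.42 without animals 18 and 22. B9d1 had 9.32, 9.76 and 9.33 at 6 h, close to the 8.89 to 9.41 of air animals 15 to 17.

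Between exposed groups, which need no air animals, 38 of 42 members had a lower mean at 6 h than at 3 h, with a median of -0.53 beside -0.04 over all genes. Limma called 0 (0.00504% of probe sets), and 2 members had an unadjusted p under 0.05, against 4.17% of genes. In 10 members every 6 h animal was below every 3 h animal, against 4.36% of genes: Arl6, Bbs5, Bbs7, Dync2li1, Ift22, Ift43, Ift70a1, Ift74, Ift80 and Ift140. Ift80 had 7.22, 8.24 and 7.81 at 6 h, against 8.99, 8.88, 9.11 and 8.80 at 3 h, a change of -1.19 ± 0.44 (SE; adjusted p = 0.998). Ift140 had 9.61, 9.51 and 8.94 at 6 h, against values of 10.04 or higher in all 4 animals at 3 h, a change of -1.06 ± 0.43 (SE; adjusted p = 1.0). Of the motile axoneme genes, 39 of 40 were lower at 6 h, with a median of -1.22 and 14 at an unadjusted p under 0.05, and limma called 0. Leukocyte genes were lower in 20 of 20, with a median of -0.67, and cell cycle genes in 17 of 21 (-0.22), basal cell genes in 8 of 12 (-0.32) and secretory genes in 12 of 17 (-0.34). Stroma and vessel genes were higher in 13 of 15, with a median of 0.30, and cartilage and bone genes in 6 of 8 (0.56). Limma called 0 genes of these lists as well, and the part of other cells in the members' step was not tested.

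From 6 h onward the direction was the opposite. At 24 h, 40 of 42 members had a higher mean than at 6 h, with a median of 0.54 beside 0.03 over all genes. Limma called 0 members (0.0101% of probe sets), 1 had an unadjusted p under 0.05 (3.55% of genes), and 4 (Ift20, Ift22, Ift27 and Ift172) had every 24 h animal above every 6 h animal (4.34% of genes). Ift27, a small GTPase-like IFT-B subunit that helps the BBSome leave the cilium, had 10.79, 10.90, 10.27 and 11.08 at 24 h, against 9.61, 10.10 and 8.90 at 6 h, a change of 1.22 ± 0.49 (SE; limma, adjusted p = 1.0). Cell cycle genes were higher at 24 h than at 6 h in 21 of 21 (median 1.76), motile axoneme genes in 40 of 40 (0.89) and secretory genes in 15 of 17 (0.61), while stroma and vessel genes were lower in 14 of 15 (-0.59) and leukocyte genes in 16 of 20 (-0.35), with 0 called by limma. The steps into and out of 6 h share their 3 animals at that time, and animal 10 was low for most members: without it the medians were -0.34 for 6 h against 3 h and 0.29 for 24 h against 6 h.

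The air groups were also compared with each other. They differed in time, and the 5-day label was on all air 144 h animals but only on animal 18 of air 24 h. Between air 144 h and air 24 h, 32 of 42 members were higher at 144 h, with a median of 0.23 beside 0.10 over all genes. Limma called 0 (0% of probe sets), and 3 had an unadjusted p under 0.05, against 7.56% of genes. The groups overlapped in all 42 members, while 1.12% of genes had every air 144 h animal above every air 24 h animal and 0.89% had them below. Without animals 18 and 22 the median was 0.01, with 22 higher and 1 member at an unadjusted p under 0.05.

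Whether the H2S change differed between 144 h and 24 h was tested as the difference of the 2 changes. This difference was positive in 29 of 42 members, with a median of 0.39 beside -0.14 over all genes, and limma called 0 members (0% of probe sets, smallest adjusted p 0.946). At an unadjusted p under 0.05 there were 5 members, all positive, against 4.43% of genes: Dync2h1 (1.74), Kif3a (1.62), Bbs5 (1.48), Bbs7 (1.19) and Bbs2 (1.15). Without animals 18 and 22 the median was 0.62, beside 0.000302 over all genes, with 38 of 42 positive, and 2 members (Kif3a and Bbs7) had an unadjusted p under 0.05. With single animals left out it ran from 0.16 (without animal 13) to 0.70 (without animal 25). A larger change at 144 h than at 24 h was not shown for any member.

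The members were also compared with Foxj1 from animal to animal, within groups, so that differences between group means did not enter. Here limma called 8 of the 42 members, all rising with Foxj1, against 1.67% of all genes called in that direction (1.21% of probe sets). The slope was positive in 40 of 42 members, with a median of 0.40 log2 units per log2 unit of Foxj1, beside 0.02 over all genes, and 21 members had an unadjusted p under 0.05 against 20.6% of genes. The 8 were Ift27 and Ift25 of IFT-B, Ift43 and Ift140 of IFT-A, the dynein-2 genes Dync2i2 and Dync2li1, and Tctn1 and Nphp4 of the transition zone.

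Ift27 had the smallest p, with a slope of 0.81 ± 0.13 (SE; limma, adjusted p = 0.00608). In the air 144 h animals 19 to 22 its values were 9.20, 9.99, 10.43 and 11.05, in the same order as Foxj1 (9.25, 9.26, 10.19 and 11.30). At H2S 3 h, in animals 3 to 6, they were 9.36, 10.21, 10.46 and 11.20, beside Foxj1 values of 8.42, 9.48, 9.97 and 10.72. Nphp4 had the steepest slope, 1.23 ± 0.27 (SE; adjusted p = 0.0289), with 5.00, 4.62, 7.46 and 8.95 in air 144 h and 6.48, 7.55, 7.05 and 7.16 at H2S 3 h. Some of its values are near the floor: those under 6 are signals under 48, and its lowest were 4.59 in H2S 24 h and 4.83 in H2S 6 h. Its slope ran from 0.86 to 1.65 over other settings, and its call was lost in 11 of 39. The call of Ift27 was lost in 5 of 40 settings and that of Tctn1 in 13 of 39. Out of 40 settings, the call was lost in 13 for Ift43, 15 for Ift140, 20 for Dync2i2, 27 for Ift25 and 28 for Dync2li1.

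Ift43 had 11.53, 10.75, 10.12 and 11.96 in H2S 144 h, against 9.29, 10.28, 9.95 and 11.36 in air 144 h, and its slope was 0.84 ± 0.19 (SE; adjusted p = 0.0306). Within each of these groups its highest value was in the animal with the highest Foxj1, animals 26 and 22. Tctn1 had 8.45, 7.99, 7.79 and 8.54 in H2S 144 h, against 7.31, 7.84, 7.02 and 8.88 in air 144 h, with a slope of 0.72 (adjusted p = 0.0301). Dync2i2 had 9.70, 9.58, 8.44 and 9.10, against 7.89, 8.49, 8.75 and 9.85, in the same groups, with a slope of 0.74 (adjusted p = 0.0348). For both genes the highest air animal, animal 22, was above every H2S 144 h animal.

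Ift25, the partner of Ift27, had 13.39, 13.76, 12.34 and 14.17 in H2S 144 h, against 10.69, 12.53, 11.95 and 13.13 in air 144 h, with a slope of 0.83 (adjusted p = 0.0449). The slopes of Ift140 and Dync2li1 were 0.61 (adjusted p = 0.0343) and 0.68 (adjusted p = 0.0454). At the other end, Ift20 (-0.30 ± 0.32) and Ttc8 (-0.29 ± 0.26) had negative slopes and Ift81 one of 0.06 ± 0.22 (SE), none of them called. Ift20 had 10.30, 10.64, 9.40 and 10.87 in H2S 144 h, against 10.41, 10.31, 10.50 and 8.65 in air 144 h, where animal 22 was the lowest while its Foxj1 was the highest.

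These calls rested on few animals. Without animal 22, the count called was 0, and it was also 0 without the 2 animals whose Foxj1 lay farthest from the median (22 and 10), although the slopes of the 8 genes kept their direction in every setting run. Without animal 18 it was 17. Of the motile axoneme genes, 22 of 40 were called with the same direction in the full data. Their count was 0 without animal 22 and 10 without animals 18 and 22. Most other lists had positive median slopes. It was 0.36 for secretory genes (14 of 17 positive, 8 at an unadjusted p under 0.05, 2 called). It was 0.31 for basal cell genes (11 of 12, 0 called) and 0.235 for cell fate and basal body genes (18 of 24, 5 called). The 35 genes outside the rule had 0.21 (29 positive, 2 called), leukocyte genes 0.10 (14 of 20) and blood genes -0.15 (0 of 3). The part of other cells was not tested. Foxj1 was read from the same arrays as the members.

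**Figure D5:**
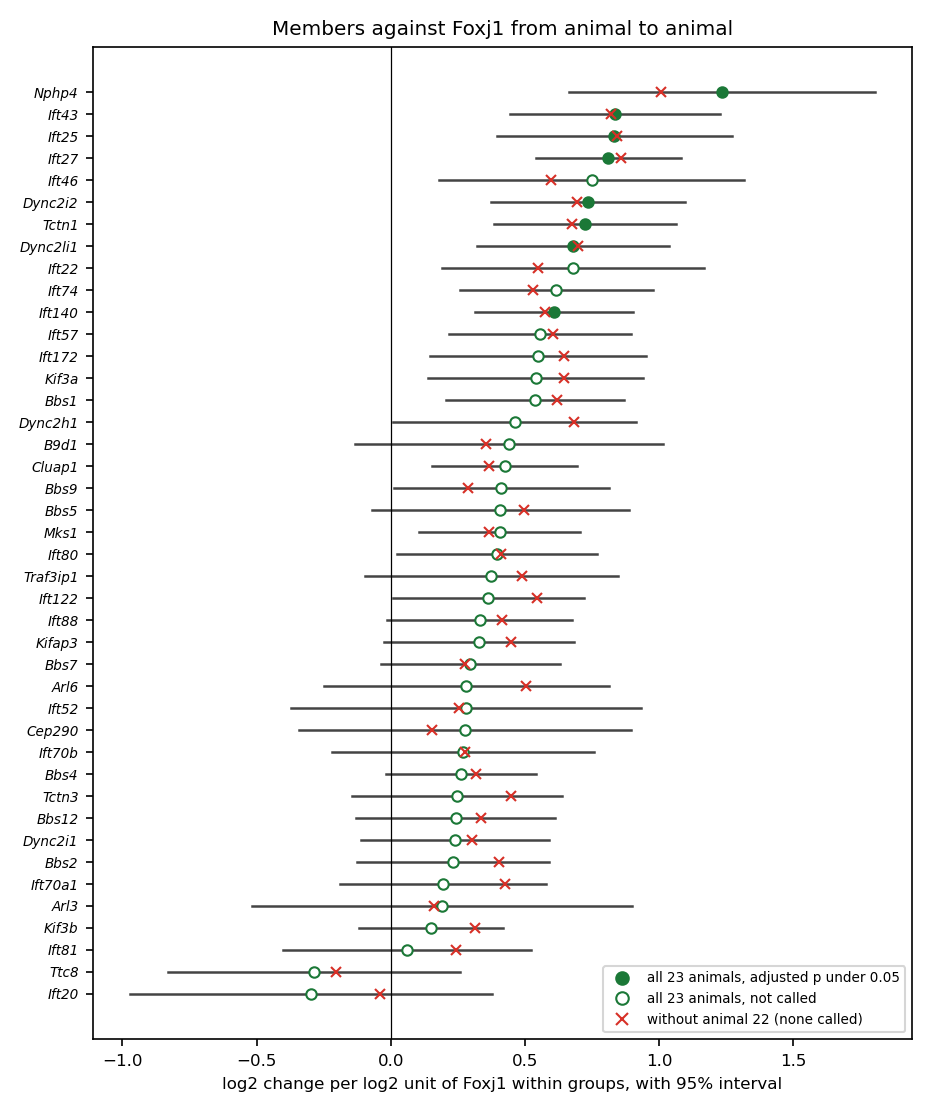
Slope of each member on Foxj1 within groups, in log2 units per log2 unit, with limma's 95% interval over all 23 animals, and the slope without animal 22 as a cross. The 8 filled points were called, and 40 of 42 slopes are positive. Without that animal none was called, and the slope of Ift81, for example, was larger.

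Other probe sets of the same genes gave a partial check within the array. Of 10 members with several kept probe sets, 6 had all of them in 1 direction at 144 h and 4 (Bbs4, Ift22, Ift46 and Tctn1) did not. The second probe set of Kif3a differed by 1.24 (unadjusted p = 0.0554), that of Ift81 by 1.91 (unadjusted p = 0.00143) and that of Ift25 by 2.46. The second probe set of Bbs7, a dimmer one, differed by 0.11 (unadjusted p = 0.793), so the Bbs7 value holds for 1 of its 2 probe sets.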

How the data were processed

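Nasal respiratory epithelium of 23 rats in 6 groups was profiled on 1 Affymetrix Rat230_2 array each. The deposited values are intensity, the linear signal of each probe set, and the authors named GCOS 1.0, per the submitters' processing notes. How that tool was set is not given in these sources. Per the labels' protocols, RNA was isolated with a PicoPure column and amplified in 2 rounds. Leaving out the outer 2% at each end, array means were 500.1 to 500.2, and no further normalization was applied. Precision is limited by the 3 or 4 animals, with 1 array each, in a group.

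Values were taken as log2(intensity + 16). Probe sets above their array's median on at least 3 arrays stayed in the tests, 19822 out of 31099 without the 57 controls. Gene symbols came from the platform table: 20832 probe sets had 1 symbol, 436 several and 9831 none. Genome coordinates were not used here. Tests used lmFit and eBayes of limma 3.58.1 (R 4.3.3, two-sided), which fitted 1 mean per group over all arrays, with Benjamini-Hochberg adjustment over kept probe sets and a threshold of 0.05. For the slope, log2 Foxj1 was added to the group means. The script was tested on simulated data. Lists are described by counts and medians, with no test. Nothing in the labels pairs animals.

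The members, lists and tests were chosen with earlier results of these data known. Values in each animal are given for members called in any comparison, for the 3 smallest p in each comparison of H2S with air, and for the 3 largest and smallest slopes. Ift88, the member level and Foxj1 were shown as well after their values were seen. Alternatives covered the pseudocount (1 or 64), normalization, filter, eBayes options, array weights, covariates, probe sets per gene and the animals included.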

Additional observations from a re-analysis of the deposited data

Results flagged for a closer look

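Of 95 sets of 4 animals tested for a single animal far from the other 3, 5 were picked out. Chance picks about 1 in 20 of independent sets. These sets were not independent: the genes were named by their values here and move together within an animal. The number therefore cannot be set against chance, and all 5 fell in animals 18, 22 and 25. In animal 18 (air 24 h) B9d1 was 5.52, with 8.89, 9.21 and 9.41 in the other air 24 h animals, and Ift20 was 5.93, with 9.97, 10.20 and 10.32. In animal 22 (air 144 h) Ift20 was 8.65, with 10.31, 10.41 and 10.50 in the others. In animal 25 (H2S 144 h) Ift140 was 10.33, with 11.21, 11.35 and 11.37 in the others, and Ift27 was 10.12, with 11.43, 11.46 and 11.49. The arrays of animals 18 and 22 stood apart for all genes, and that of animal 25 did not (median correlation 0.892). The part of the array or of the captured tissue in these values was not tested.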

How the results depend on the processing

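Limma called 0 members in each of the 8 group comparisons under every alternative, including each animal left out in turn, and the smallest adjusted p was 0.0752 (H2S 6 h against 3 h). Of 205 other values of the median change, 204 moved by less than 1 SD. That SD is 0.39 log2 units, the pooled spread of the member level between animals of a group. It is wide beside the medians, so even the turn of sign at 6 h lies within it. The exception was 3 h against air 24 h adjusted for the RNA integrity number, 0.0761, a fit that leaves out the arrays without a number. The Foxj1 count of 8 was 2 after quantile normalization, with array weights, and without animals 18 and 22 once adjusted for the array median. It was 1 after median centring, with no filter, without animals 18 and 22, and on arrays with an RNA integrity number. It was 0 adjusted for that number and without the 2 animals farthest in Foxj1, and 15 without arrays of a number under 3. With each animal left out it ranged from 0 to 17, with 0 without animal 22, 1 without 19, 2 without 10 and 17 without 18. The slope of Ift20 reversed to 0.27 (median centring), 0.043 (array median as covariate), 0.079 (without animals 18 and 22), 0.088 (the same with the array median) and 0.0014 (without the 2 farthest). That of Ttc8 reversed to 0.14 (median centring), and that of Ift81 to -0.034 (without numbers under 3), -0.003029 (without animal 13) and -0.059 (without animal 25), with up to 0.244 (without animal 22) among animals left out. The cause was not tested. Medians over animals left out ran from 0.38 to 0.64 at 3 h, -0.24 to 0.10 at 6 h, 0.26 to 0.69 at 24 h, 0.55 to 1.04 at 144 h and 0.16 to 0.70 for the difference between 144 h and 24 h. Median centring moved the all-gene median at 144 h to 0.35 and that of the members to 1.12. No paired analysis was possible because the labels pair no animals.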
